A study of Drosophila melanogaster with 34 samples.

Results

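The genes described here encode the proteins of the mitochondrial ribosome of Drosophila melanogaster. They were taken as every probe set whose single annotated gene symbol starts with mRpL (large subunit) or mRpS (small subunit), which gave 71 of the array's 18769 probe sets and 69 genes, because mRpS11 and mRpL47 have 2 probe sets each. The large subunit contributes 45 of these probe sets and the small subunit 26. The rule used symbols only and no measured value. A gene table of the current fly annotation holds 73 genes with such symbols. The 4 not included are mRpL34 and mRpL37, which no listed probe set names, and mRpL53 and mRpS10, whose probe sets are shared with another gene. Mitochondrial ribosomal protein genes under other names, such as tko and bonsai, fall outside the rule, and bonsai is counted below among the factors of mitochondrial gene expression.

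Mitochondrial ribosomes translate the few messages of mitochondrial DNA, all of which in animals encode subunits of the respiratory chain and the ATP synthase. Their RNA comes from mitochondrial DNA, but all of their proteins are encoded in the nucleus, made in the cytosol and imported. Some of these proteins have counterparts in the bacterial ribosome and keep the bacterial number, and others exist only in mitochondria. In flies, mutations in such genes are known to slow larval growth, and the tko mutation in the gene of the mitochondrial S12 protein causes seizures after mechanical shock.

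The larvae came from 6 populations founded from 1 outbred base population and kept for more than 300 generations. The control regime (populations R1 and R2) was kept on standard medium, the ethanol regime (E1 and E2) on medium with 12% ethanol, and the variable regime (M1 and M2) on a mixture of vials of both media in every generation. Flies of all populations were first reared on standard medium, and their eggs were then covered for 15 hours by distilled water or by an 18% ethanol solution that came to about 12% with the laying medium. RNA was taken from pools of 50 to 200 newly hatched first-instar larvae, so the eggs and any early hatched larvae were exposed while the hatched larvae were measured. Whole larvae were extracted, and a lower value cannot be told apart as fewer cells of a type or less RNA per cell. Each regime is represented by only 2 populations, and the study carries no mutant or transgene.

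Of the 35 samples that were hybridised per the labels, 34 arrays were used: 6 water and 6 ethanol arrays for the control regime, 6 and 6 for the ethanol regime, and 5 and 5 for the variable regime. Each title ends in 1, 2 or 5, with 11, 11 and 12 arrays, and the labels describe 3 blocks of extraction on separate days. These numbers were read as the extraction day, written day 1, 2 and 5 here, although no label says so in words. M2 has no ethanol array of day 1 and M1 has no water array of day 2, which leaves 16 pairs of a water and an ethanol array of the same population and day. Array medians over all probe sets lay between 3.89 and 4.02 on the log2 scale, and between 9273 and 9400 probe sets per array reached a value of 4. No array repeated another, and their number limits the precision. Markers of the adult female stayed low, with the yolk protein and chorion genes under 4 on all arrays but 1, where Yp1 read 5.52. The larval cuticle gene Lcp9 was also under 4 on every array, with a highest value of 2.43.

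The labels of day 5 went against the data. Over the 300 probe sets that best separated the populations on days 1 and 2, each of the 22 arrays of those days was most like its own population. Because the 300 were chosen on days 1 and 2, that match is no independent check of the labels of those days. All 4 day 5 arrays labelled with control populations were also nearest to their own population, at r of 0.818 to 0.887. All 8 day 5 arrays labelled with variable or ethanol populations were nearest to the population of the same number in the other of these regimes, at r of 0.805 to 0.930, against 0.172 to 0.623 for the population named on the label. Values are given as labelled, and the counts and medians of the regime comparisons also with the labels of these 8 arrays interchanged (M1 with E1, M2 with E2) and without them. The regime of these arrays is written as labelled throughout.

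**Figure D1:**
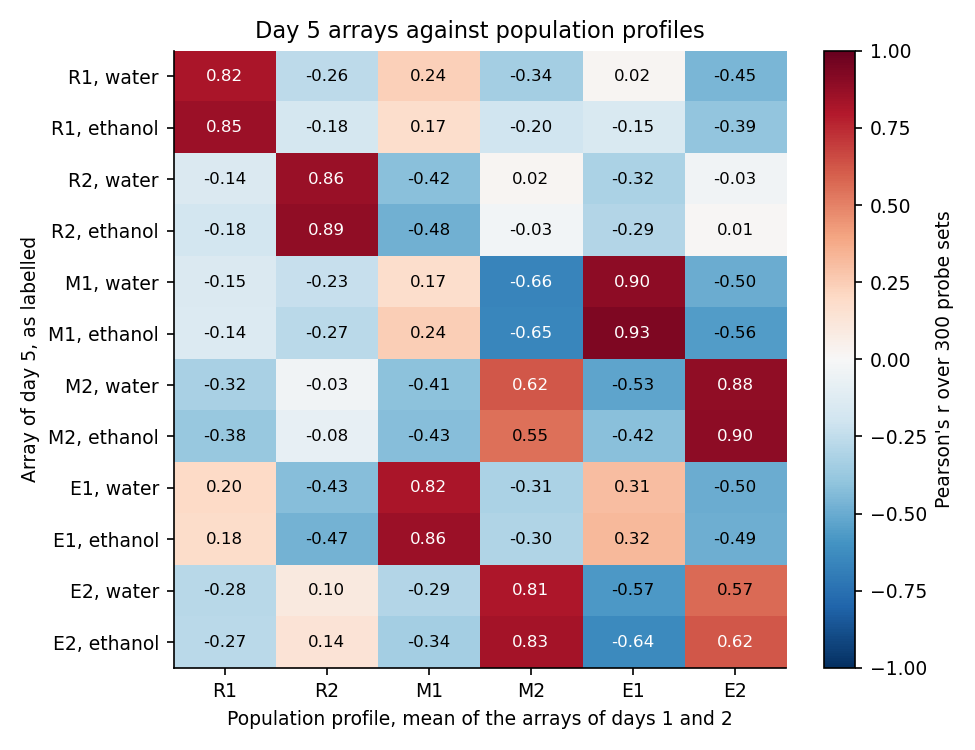
Correlation (Pearson's r, colour and number) of each of the 12 arrays of day 5 (rows, as labelled) with the profile of each population from days 1 and 2 (columns), over 300 probe sets. The 4 control arrays match their own column, and the 8 arrays labelled M or E match the same number in the other of these regimes.

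Mitochondrial ribosomal protein genes were well measured in these larvae. All 71 probe sets reached a value of 4 on all 34 arrays, so the filter on low values removed none of them. That filter asked for a value of 4 or more on a minimum of 5 arrays and passed 9729 probe sets. Single values ran from 7.61 to 12.89 on the log2 scale. The means of the probe sets ran from 8.08 to 12.36 with a median of 10.67, against a median of 8.37 over all tested probe sets. Levels of different probe sets depend on their probes, and no order of abundance among these genes is drawn from them.

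The probe sets varied little between arrays and they varied together. Their standard deviation (SD) over the 34 arrays had a median of 0.167, against 0.248 over all tested probe sets and 0.172 over the 2439 other probe sets with a mean level of at least 10. After subtracting the mean of each population and exposure, the correlation between pairs of these probe sets over the arrays had a median of 0.548, and 95.1% of the 2485 pairs were above 0. With the extraction day also removed the median was 0.472 and 90.0% of pairs were above 0. The mean correlation was 0.499 among these probe sets and 0.007 over all tested probe sets. These arrays, their RNA pools and their hybridisation are shared by all probe sets, so a count of genes above or below 0 in any comparison describes 1 shared pattern and not 71 independent ones.

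The median over the 71 probe sets ranged from 10.34 on the R2 ethanol array of day 1 to 10.88 on the M2 ethanol array of day 5. Water arrays ran from 10.55 to 10.87 with a median of 10.64, and ethanol arrays from 10.34 to 10.88 with a median of 10.65, so the exposures overlapped and the lowest arrays were ethanol arrays. By day, the arrays ran from 10.34 to 10.85 on day 1, from 10.42 to 10.74 on day 2 and from 10.64 to 10.88 on day 5. The population accounted for a median of 17.6% of the variance of these probe sets, the day for 20.0% and the exposure for 2.05%. Over all tested probe sets the same medians were 16.6%, 15.8% and 5.29%.

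**Figure D2:**
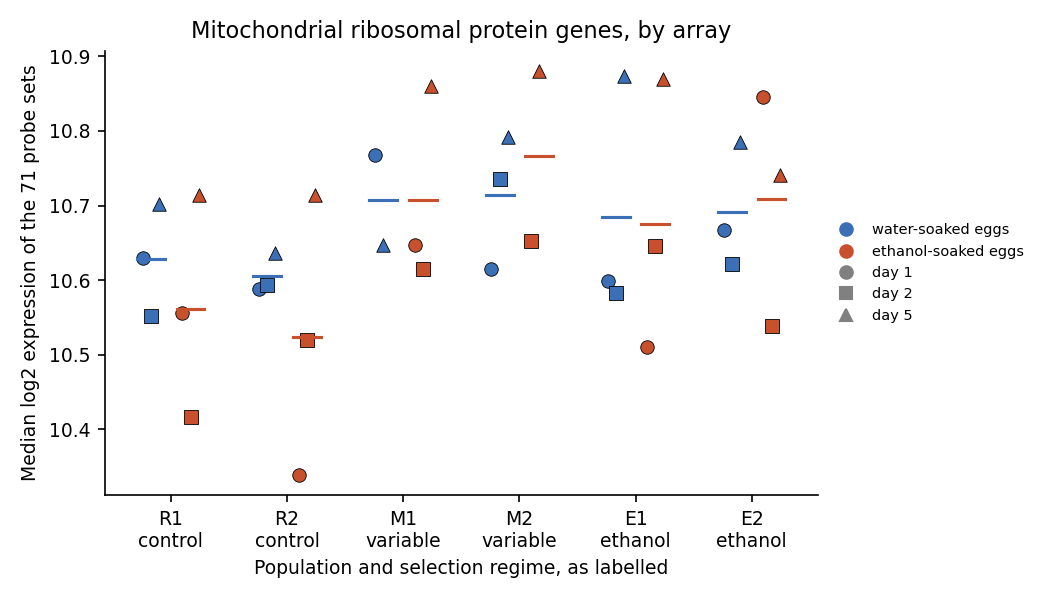
Median log2 expression of the 71 mitochondrial ribosomal protein probe sets on each of the 34 arrays, by population, exposure (colour) and extraction day (marker). Short lines are means of the arrays of a population and exposure; arrays of day 5 lie between 10.64 and 10.88, and those of water and ethanol overlap.

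The first comparison asked how newly hatched larvae from ethanol-soaked eggs differed from those of water-soaked eggs over all 6 populations. Of the 71 probe sets, 3 were called, all higher after ethanol: mRpL18, mRpL28 and mRpL42. That is 4.23% of them, against 31.2% of all tested probe sets called in either direction (limma, adjusted p under 0.05, Benjamini-Hochberg over the 9729 probe sets). In the higher direction 15.2% of all tested probe sets were called, and in the lower direction 16.0%, where no mitochondrial ribosomal protein gene was called. The median difference of the 71 was 0.00 on the log2 scale, with 36 above 0 and 35 below, and their median size without sign was 0.04 against 0.11 over all tested probe sets. Their median standard error was 0.05 against 0.07 over all.

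mRpL18 is the mitochondrial relative of the bacterial L18 protein, which in bacteria binds the small 5S RNA of the large subunit. Its control arrays read 9.14, 8.89 and 9.41 (R1) and 9.31, 9.31 and 9.51 (R2) after water on days 1, 2 and 5, and 9.22, 9.0 and 9.63 (R1) and 8.81, 9.44 and 9.70 (R2) after ethanol. In the arrays labelled with the ethanol regime it read 9.42, 9.71 and 9.96 (E1) and 9.06, 9.30 and 9.80 (E2) after water, and 9.82, 9.83 and 10.02 (E1) and 9.91, 9.66 and 10.05 (E2) after ethanol. The exposures overlapped within each regime. The arrays labelled with the variable regime read 9.43 to 9.83 after water and 9.51 to 10.07 after ethanol. The difference over all populations was 0.18 ± 0.06 (standard error), with an adjusted p of 0.0180 in limma, and it was above 0 in 14 of 16 pairs and in 5 of 6 populations. It was 0.17 with the day 5 labels interchanged (adjusted p 0.0239 in limma) and lost its call without the 8 arrays, without the M1 water array of day 5 and without days 2 or 5.

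mRpL28, also a protein with a bacterial counterpart, differed by 0.13 ± 0.04 (adjusted p 0.0239 in limma), above 0 in 13 of 16 pairs. Its 17 water arrays ran from 9.91 through a median of 10.23 to 10.37, and its 17 ethanol arrays from 10.14 through 10.32 to 10.50. The exposures overlapped, with the higher ethanol arrays above every water array. mRpL42, which has no bacterial counterpart, ran from 11.01 through 11.28 to 11.47 after water and from 11.16 through 11.34 to 11.67 after ethanol. It differed by 0.09 ± 0.04 (adjusted p 0.0496 in limma), above 0 in all 6 populations and 13 of 16 pairs. The mRpL28 call was kept with interchanged labels, at 0.12 ± 0.04 (adjusted p 0.0216 in limma), and lost without the 8 arrays or without the M1 water array of day 5. The mRpL42 call was lost in 27 of the 34 fits that left out 1 array.

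The proteins of the stalk, which recruits the translation factors, showed no call. mRpL12, the stalk protein, differed by -0.02 ± 0.03 and mRpL10, which anchors it, by 0.09 ± 0.06. mRpL55, a mitochondrial protein without bacterial counterpart, differed by 0.02 ± 0.04, and mRpS16 of the small subunit by -0.02 ± 0.04. Each of these 4 differences was smaller than 1.5 times its standard error. The large subunit held all 3 calls, and its 45 probe sets had a median difference of 0.00, as did the 26 of the small subunit. Of the 41 probe sets with numbers up to L36 or S21, the range used in bacteria, 2 were called, and of the other 30 probe sets 1 was called. This split went by number alone and not by relatedness of the proteins.

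**Figure D3:**
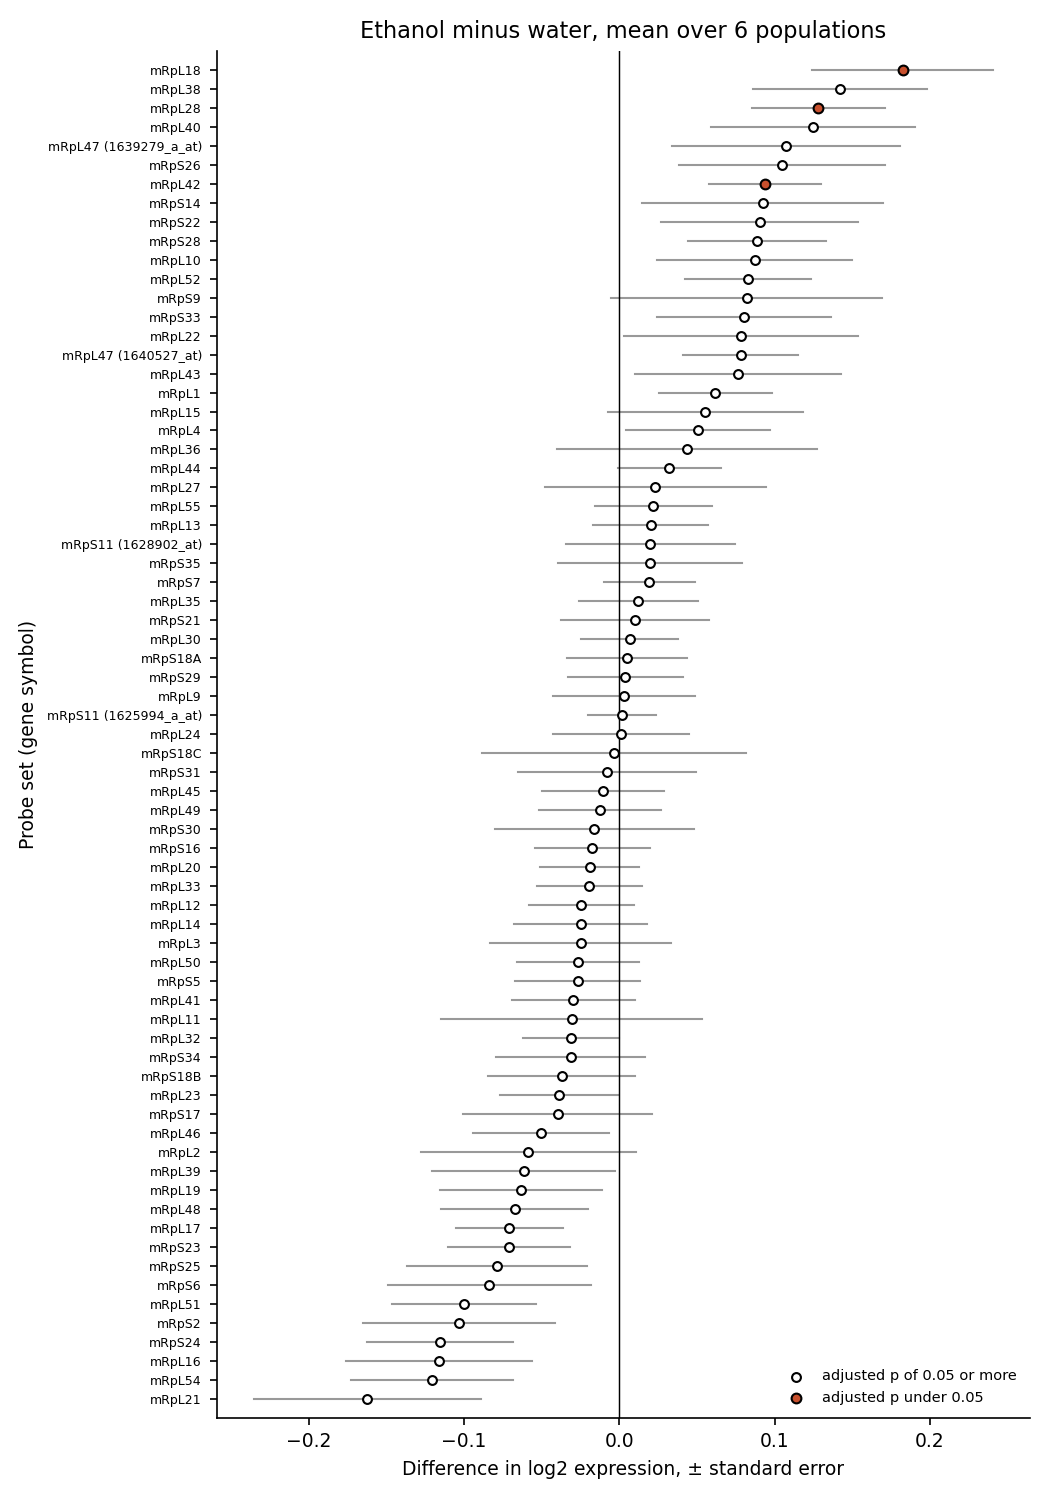
Ethanol-minus-water difference in log2 expression, mean over the 6 populations, for each of the 71 probe sets (points) with its standard error (bars). The 3 filled points, mRpL18, mRpL28 and mRpL42, had adjusted p-values under 0.05 in limma, and the points are spread about evenly on either side of 0.

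How many of these genes were called, and in which direction, depended on the day 5 arrays. As labelled, 3 of the 71 and 31.2% of all tested probe sets were called. The counts that follow are at most 6 of the 71. Calls over all tested probe sets are given below only for the fit without the 8 arrays. The other counts cannot be set against the whole array. With interchanged labels 6 were called: mRpL18, mRpL28 and mRpL38 higher, and mRpL21, mRpL54 and mRpS24 lower. Without the 8 arrays 1 was called, mRpL16, lower by -0.20 ± 0.07 (adjusted p 0.0410 in limma). That fit called 2474 of all tested probe sets in either direction, against 3037 as labelled. Without the M1 water array of day 5 alone 2 were called, both lower, mRpL16 (-0.17 ± 0.06) and mRpL51 (-0.13 ± 0.05). Without any array of day 5 there were 4, all lower: mRpL16, mRpS2, mRpS6 and mRpS30, with differences of -0.26 to -0.16. These last genes were named after their values were seen. In bacteria, L16 lies near the site where transfer RNA enters the large subunit, and S2 and S6 are proteins of the small subunit.

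Within the control regime, 2 probe sets were called, both lower after ethanol: mRpL21 and mRpL51. That is 2.82%, against 10.1% of all tested probe sets called lower and 18.1% called in either direction. The median of the 71 differences was -0.06, with 58 below 0 and 13 above, against -0.01 over all tested probe sets. Without the R2 ethanol array of day 1, the array with the lowest median of these genes, it was -0.04, with 45 below 0 and 26 above. The largest positive difference was 0.13 ± 0.09 for mRpL38, which was not called (adjusted p 0.394 in limma).

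mRpL21, relative of a bacterial protein of the large subunit, read 9.50, 8.88 and 9.34 (R1) and 9.32, 9.02 and 9.39 (R2) after water on days 1, 2 and 5. After ethanol it read 8.91, 8.50 and 9.09 (R1) and 8.46, 8.74 and 8.92 (R2). The ethanol array was the lower in all 6 control pairs, although the groups overlapped across days. It fell by 0.47 ± 0.12 on the log2 scale (adjusted p 0.00718 in limma). The call was kept with interchanged labels and without the 8 arrays, but lost without day 1 (adjusted p 0.0747 in limma).

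mRpL51, without bacterial counterpart, read 11.31, 11.45 and 11.49 (R1) and 11.36, 11.38 and 11.48 (R2) after water, and 11.17, 11.19 and 11.34 (R1) and 10.80, 11.22 and 11.42 (R2) after ethanol. The ethanol array was again the lower in all 6 control pairs. It fell by 0.22 ± 0.08 (adjusted p 0.0469 in limma), a call that was lost in 19 of the 34 fits that left out 1 array and in the fit without the 8 arrays.

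In the arrays labelled with the variable regime none of the 71 was called (0%), against 6.84% of all tested probe sets, and 1 had an unadjusted p under 0.05 in limma against 1909 of the 9729. The median difference was 0.07 with 59 above 0. It was -0.02 with interchanged labels and -0.03 without the 8 arrays, so its sign rested on day 5. The smallest p-values belonged to mRpL52 (0.17 ± 0.08), mRpL1 (0.14 ± 0.07) and 1 of the probe sets of mRpL47 (0.28 ± 0.14), and the most negative difference was that of mRpL45 (-0.11 ± 0.07).

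In the arrays labelled with the ethanol regime mRpL18 rose by 0.34 ± 0.10 (adjusted p 0.0264 in limma). It was the 1 call among the 71 (1.41%), where 8.43% of all tested probe sets were called in either direction and 4.55% higher. Its ethanol array was the higher in all 6 pairs. With interchanged labels mRpL18 differed by 0.40 ± 0.10 (adjusted p 0.00595 in limma) and mRpL38 was also called, at 0.27 ± 0.09 (adjusted p 0.0480 in limma). Without the 8 arrays none was called, and the mRpL18 difference was 0.43 (adjusted p 0.0527 in limma). The median difference of the 71 was 0.01 as labelled, 0.08 with interchanged labels and 0.02 without the 8 arrays, and the most negative difference was that of mRpL16 (-0.14 ± 0.10).

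Whether the regimes differed in their response was tested with the populations as replicates, 2 per regime. No probe set was called, either among the 71 or among all 9729 (0%). For the variable against the control regime, 15 of the 71 had an unadjusted p under 0.05 in limma (21.1%), against 5.44% of all tested probe sets. For the ethanol against the control regime there were 2 (2.82%, against 4.05%), and for the ethanol against the variable regime 4 (5.63%, against 2.17%). With interchanged labels these counts were 1, 14 and 15, and without the 8 arrays 0, 2 and 1. Without the M1 water array of day 5 alone they were 1, 0 and 0. The shares over all tested probe sets are not given for these refits. Their counts thus show how the number moved and cannot be set against the whole array.

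The median difference in response was 0.15 for variable minus control, with 68 of 71 above 0. It was 0.05 with interchanged labels, 0.05 without the 8 arrays (47 above 0) and 0.06 without the M1 water array of day 5 alone. For ethanol minus control it was 0.08 as labelled, 0.15 with interchanged labels and 0.09 without the 8 arrays (59 above 0). For ethanol minus variable it was -0.07 as labelled, 0.10 with interchanged labels, 0.06 without the 8 arrays and 0.02 without the M1 water array of day 5 alone, so the direction as labelled rested on that 1 array. The first 2 of these comparisons share the control populations. The smallest p-values were those of mRpL21, mRpL2 and mRpS25 for variable minus control (0.57 ± 0.14, 0.38 ± 0.13 and 0.28 ± 0.09, adjusted p of at least 0.665 in limma). For ethanol minus control they were those of mRpL19, mRpL21 and mRpL49 (0.28 ± 0.11, 0.36 ± 0.14 and 0.17 ± 0.08), and for ethanol minus variable those of mRpL36, mRpS21 and mRpL11 (-0.34 ± 0.11, -0.26 ± 0.10 and -0.30 ± 0.13).

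The 2 populations of a regime can also be set against those of another without a test. The response of 48 of the 71 probe sets was higher in both variable than in both control populations, and that of none was lower in both. Over all tested probe sets, 17.9% were higher in both and 14.7% lower in both. For ethanol against control populations, 26 were higher in both and none lower, against 17.6% and 12.5%. For ethanol against variable populations, 4 were higher and 28 lower, against 15.3% and 14.3%. These counts moved with the day 5 arrays. For variable against control they were 24 and 7 with interchanged labels (19.6% and 16.1% of all tested probe sets), 13 and 5 without the 8 arrays (17% and 16.7%) and 13 and 0 without the M1 water array of day 5 alone (11.7% and 11.5%). For ethanol against control they were 43 and 0 with interchanged labels (21.7% and 16.6%) and 31 and 3 without the 8 arrays (17.8% and 14.2%). For ethanol against variable they were 38 and 5 (25.8% and 22.6%) and 11 and 4 (18.3% and 15.4%), and 5 and 2 without the M1 array alone (13.1% and 10.4%). The median response per population was -0.05 in R1, -0.09 in R2, 0.07 in M1, 0.06 in M2, 0.01 in E1 and -0.02 in E2, as labelled. With interchanged labels the other 4 stood at -0.05 in M1, 0.00 in M2, 0.08 in E1 and 0.05 in E2, and without the 8 arrays at -0.10, 0.03, 0.00 and 0.02.

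The response was then taken by extraction day, again over all populations. M2 has no ethanol array of day 1 and M1 no water array of day 2, so the fit took differences between days as additive over populations. On day 1 and on day 2 none of the 71 was called (0%), against 8.93% and 13.0% of all tested probe sets, and 1 and 4 of the 71 had an unadjusted p under 0.05 in limma. On day 5 mRpL28 rose by 0.21 ± 0.07 (adjusted p 0.0356 in limma), which is 1.41% of the 71 against 9.46% of all tested probe sets called higher and 18.3% in either direction. The median differences were 0.00, -0.04 and 0.07 for days 1, 2 and 5. On the arrays of each day alone they were -0.03 (17 above 0 and 54 below), -0.07 and 0.07. Without the M1 water array of day 5 the day 5 median was -0.0041, with 34 above 0 and 37 below, and mRpL28 was not called (0.13, adjusted p 0.201 in limma). In the fit without the 8 arrays the day 5 median was 0.11. Day 5 then holds control arrays alone, and the fit extends them to all populations by taking differences between days as additive. The control pairs of day 5 themselves had a median of 0.02.

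The test of whether the response differed among the days called none of the 71 (3 with an unadjusted p under 0.05 in limma) and 0.0514% of all tested probe sets. Of all tested probe sets 8.93%, 13.0% and 18.3% were called for exposure on days 1, 2 and 5 as labelled. With interchanged labels no share over all is given, so the next counts cannot be set against one. With interchanged labels 1 of the 71 was called on day 1 (mRpL16, lower), 3 on day 2 (mRpS2, mRpS6 and mRpL16, all lower) and 6 on day 5, all higher, mRpL28 among them. Without the 8 arrays the same 3 genes were called lower on day 2 and none on day 5. That fit called 1568 and 494 of all tested probe sets on these days, against 1269 and 1781 as labelled. As labelled, the smallest p-values belonged to mRpL16, mRpL39 and mRpL21 on day 1 (-0.22 ± 0.10, -0.20 ± 0.10 and -0.25 ± 0.13) and to mRpL16, mRpS2 and mRpS6 on day 2 (-0.24 ± 0.10, -0.25 ± 0.10 and -0.24 ± 0.11).

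By regime and day the response can be given as values only, since each combination holds 1 or 2 populations. In the control regime the median of the 71 ethanol-minus-water differences was -0.16 on day 1, -0.08 on day 2 and 0.02 on day 5, with 65, 56 and 33 of the probe sets below 0. Of the control pairs, R2 on day 1 was the lowest at -0.25, with 63 probe sets lower after ethanol, and R1 on the same day stood at -0.09. Both control populations were below 0 on days 1 and 2 and above 0 on day 5.

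In the arrays labelled with the variable regime the median was -0.08 on day 1 (M1 alone), -0.06 on day 2 (M2 alone) and 0.19 on day 5, where M1 stood at 0.23 and M2 at 0.13. In those labelled with the ethanol regime it was 0.08, -0.04 and -0.01. E1 lay between 0.01 and 0.03 on all 3 days, whereas E2 stood at 0.15 on day 1, -0.14 on day 2 and -0.04 on day 5. Over all 16 pairs, 8 medians were above 0 and 8 below. The 4 day 5 pairs labelled with the variable and ethanol regimes change places under interchanged labels.

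**Figure D4:**
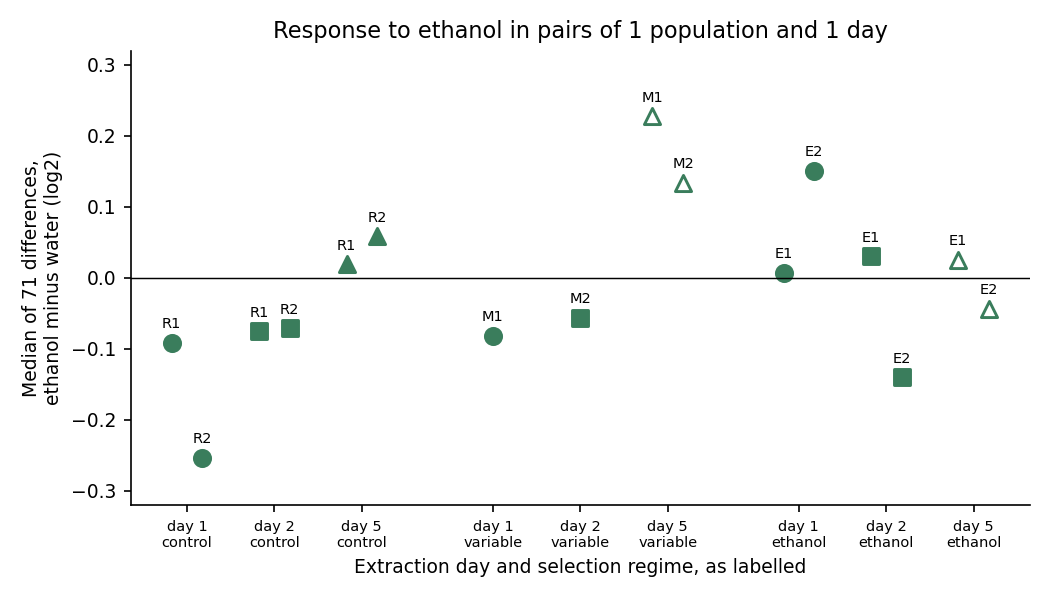
Median of the 71 ethanol-minus-water differences (log2) in each of the 16 pairs of arrays of 1 population and 1 extraction day, by regime as labelled. Open markers are the 4 day 5 pairs whose labels went against the data; the pairs run from -0.25 (R2, day 1) to 0.23 (M1, day 5).

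Differences between regimes in level, averaged over both exposures, were tested with populations as replicates. No probe set was called among the 71 or among all tested (0%). For ethanol minus control, 17 of the 71 had an unadjusted p under 0.05 in limma (23.9%, against 9.46% of all tested probe sets), for variable minus control 13 (18.3%, against 7.42%) and for ethanol minus variable 1 (1.41%, against 1.27%). With interchanged labels these counts were 4, 6 and 0, and without the 8 arrays 4, 9 and 2. For these refits, too, no share over all tested probe sets is given, so the counts have no background beside them. The median differences were 0.07, 0.09 and 0.00, with 62, 64 and 39 of the 71 above 0. They were 0.07, 0.11 and -0.03 with interchanged labels and 0.07, 0.13 and -0.02 without the 8 arrays. The first 2 comparisons share the control populations. Taken on water arrays alone the medians were 0.03, 0.01 and 0.04, and on ethanol arrays alone 0.13, 0.17 and -0.04.

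mRpL18 had the smallest p-value both for ethanol minus control (0.43 ± 0.09, adjusted p 0.482 in limma) and for variable minus control (0.38 ± 0.09, adjusted p 0.668). Its fitted levels were 9.06 in R1 and 9.19 in R2, then 9.44 in M1, 9.55 in M2, 9.63 in E1 and 9.47 in E2. Both control populations were below the other 4, with interchanged labels (9.05 and 9.18 against 9.47 to 9.58) and without the 8 arrays (9.04 and 9.17 against 9.44 to 9.66) as well. mRpL13 (0.13 ± 0.04) and 1 probe set of mRpS11 (0.23 ± 0.06) followed for ethanol minus control, and mRpS7 (0.13 ± 0.03) and the same probe set of mRpS11 (0.24 ± 0.06) for variable minus control. For ethanol minus variable the smallest p-values were those of mRpS21 (0.09 ± 0.03), mRpS14 (0.16 ± 0.08) and mRpL30 (-0.07 ± 0.04).

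Without a test, the level of 41 of the 71 was higher in both ethanol than in both control populations and that of 1 lower, against 20.9% and 18.6% of all tested probe sets. For variable against control the counts were 42 and 1 (20.6% and 17.7%), and for ethanol against variable 11 and 10 (12.2% and 13.0%). With interchanged labels the 3 pairs of counts were 32 and 2 (19.5% and 18.4% of all tested probe sets), 44 and 1 (20.3% and 15.7%), and 1 and 16 (11.3% and 14.1%). Without the 8 arrays they were 31 and 3 (21.8% and 19.7%), 45 and 1 (20.6% and 14.9%), and 2 and 21 (13.1% and 14.3%).

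Sister populations of 1 regime differed in single genes. mRpL20 was lower in R1 than in R2 by -0.19 ± 0.05 (adjusted p 0.0229 in limma), the 1 call of 71 (1.41%) where 8.09% of all tested probe sets were called and 3.89% lower. It read from 10.34 to 10.70 in R1 and from 10.55 to 10.81 in R2, with overlap. mRpS28 was lower in E1 than in E2 by -0.39 ± 0.07 (adjusted p 0.000821 in limma), also 1 of 71 (1.41%), against 11% of all tested probe sets called and 4.96% lower. It read 10.21, 10.26 and 10.60 (water) and 10.15, 10.21 and 10.69 (ethanol) in E1 on days 1, 2 and 5, and 10.53, 10.60 and 10.78 (water) and 10.88, 10.63 and 11.03 (ethanol) in E2. E2 was the higher on every day and in both exposures.

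The mRpS28 difference was -0.40 ± 0.07 with interchanged labels, where 6 of the 71 probe sets were called lower in E1. It was -0.46 ± 0.09 without the 8 arrays, where 2 of the 71 were called, against 1135 of all tested probe sets. Between M1 and M2 none was called (0%, against 3.67% of all tested probe sets, with 5 of the 71 at an unadjusted p under 0.05 in limma). The smallest p-values there were those of mRpL32 (-0.20 ± 0.06, adjusted p 0.0556 in limma), mRpL41 (-0.23 ± 0.07) and mRpL20 (-0.15 ± 0.06). With interchanged labels mRpS6 and mRpS26 were called higher in M1. No share over all tested probe sets is given for the fits with interchanged labels or for the count at unadjusted p.

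The comparisons with day 5 held the most calls among these genes of all comparisons made here. Between day 5 and day 1, 33 of the 71 rose (46.5%) and none fell, against 20.6% of all tested probe sets called higher and 22.6% called lower (43.2% in either direction). The median difference was 0.15 with 68 above 0, against -0.01 over all tested probe sets and -0.01 over the 2439 others with a mean level of at least 10, of which 23.2% were called higher. Between day 5 and day 2, 27 rose (38.0%) and none fell, against 14.6% and 18.0%, with a median of 0.14. These 2 comparisons share the arrays of day 5. Between day 2 and day 1 none was called (0%, against 11.2%), with 10 of the 71 at an unadjusted p under 0.05 in limma. The smallest p-values there were those of mRpL30 (0.10 ± 0.04), mRpL27 (-0.23 ± 0.09) and mRpS6 (0.20 ± 0.08).

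mRpL35, with a bacterial counterpart in the large subunit, ran from 9.69 through a median of 9.93 to 10.12 on the 11 arrays of day 1 and from 10.12 through 10.21 to 10.30 on the 12 arrays of day 5. The days met at 10.12. It rose by 0.29 ± 0.05 (adjusted p 1.84e-05 in limma). mRpS7, whose bacterial counterpart organises the head of the small subunit, ran from 11.99 to 12.31 on day 1 and from 12.30 to 12.54 on day 5, and rose by 0.22 ± 0.04 (adjusted p 2.32e-05).

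The stalk protein mRpL12 ran from 11.01 to 11.49 on day 1 and from 11.44 to 11.76 on day 5, and rose by 0.24 ± 0.04. mRpL18 rose by 0.41 ± 0.07, the largest rise of the 71. The 15 smallest p-values also included mRpS18B (0.34 ± 0.06), mRpS34 (0.33 ± 0.06), mRpS6 (0.33 ± 0.08), mRpL16 (0.28 ± 0.07) and both probe sets of mRpS11, a protein of the platform of the small subunit (0.14 ± 0.03 and 0.30 ± 0.07). They were completed by mRpL32, mRpL30, mRpL49, mRpL50 and mRpL44, the last with a domain related to RNase III, at 0.16 to 0.19. mRpL10 (0.25 ± 0.08), mRpL55 (0.15 ± 0.05) and mRpS16 (0.17 ± 0.05) also rose. By subunit, 20 of 45 large and 13 of 26 small subunit probe sets rose.

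Between day 5 and day 2, mRpL21 (0.40 ± 0.09), mRpL18 (0.35 ± 0.07), mRpL14 (0.29 ± 0.05), mRpS28 (0.26 ± 0.05), mRpS25 (0.25 ± 0.07), mRpS18B (0.25 ± 0.06), mRpL12 (0.24 ± 0.04) and mRpS24 (0.24 ± 0.06) rose most among the 15 with the smallest p-values. The others of these 15 were mRpL23, which in bacteria lies at the exit of the peptide tunnel, mRpL49, mRpS7, mRpL35, mRpL20, mRpL32 and 1 probe set of mRpS11, at 0.14 to 0.22.

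**Figure D5:**
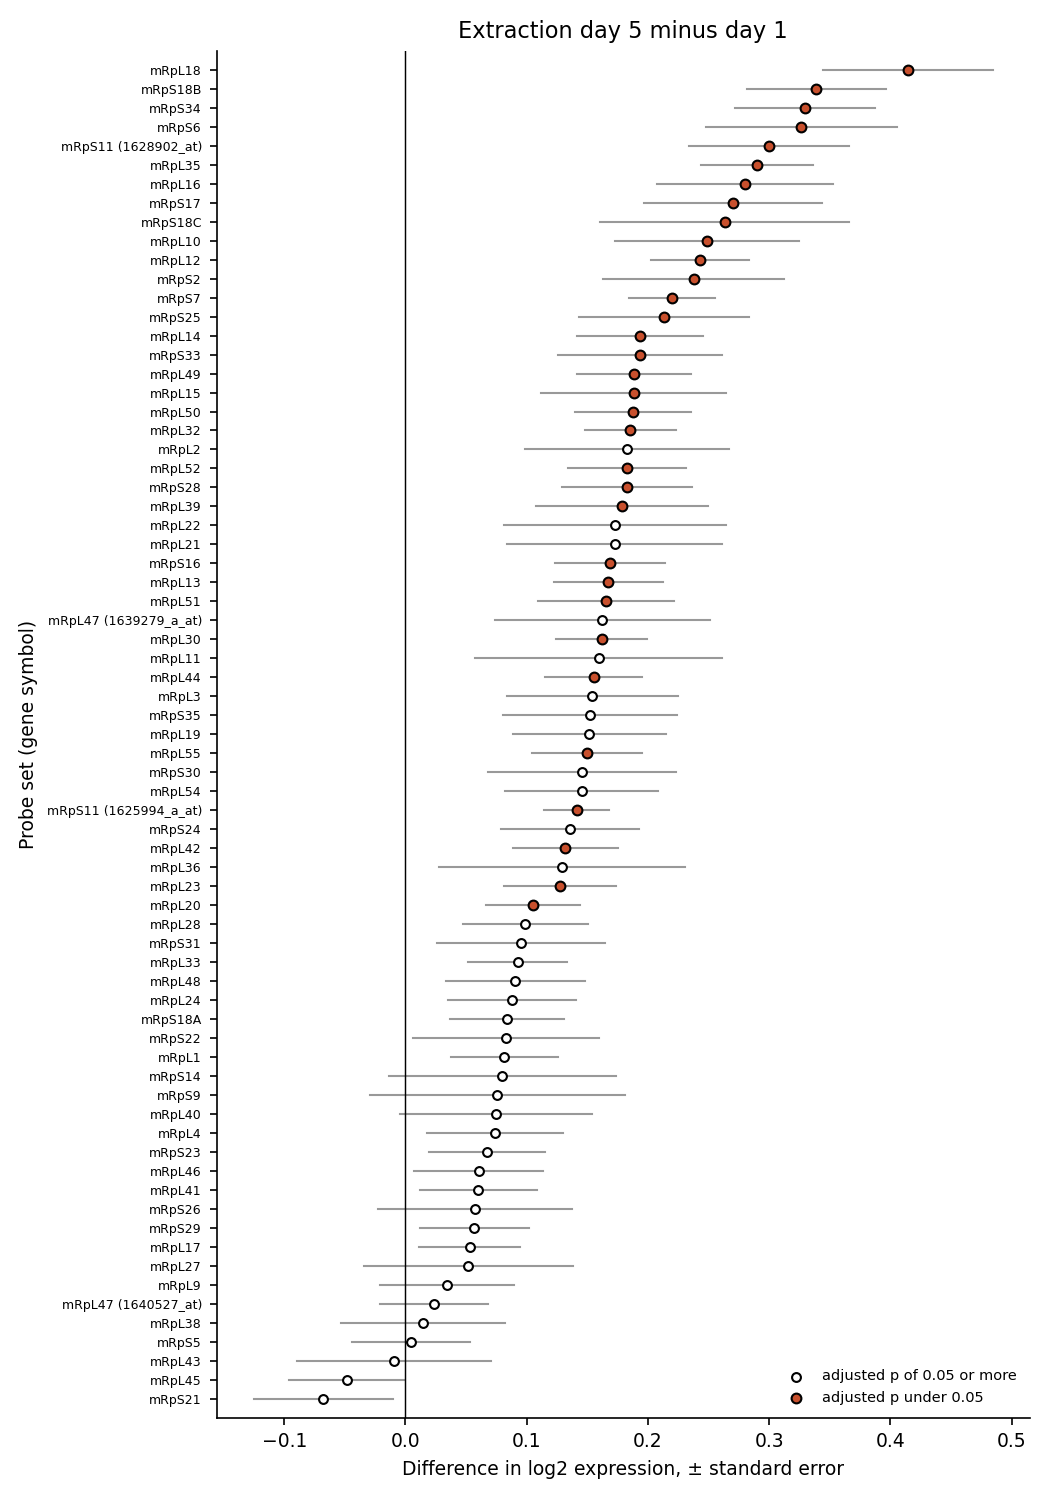
Day 5 minus day 1 difference in log2 expression for each of the 71 probe sets (points) with its standard error (bars). The 33 filled points had adjusted p-values under 0.05 in limma, all of them above 0, and 3 of the 71 points lie below 0.

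Within the same population and exposure, the median day 5 minus day 1 difference was above 0 in 9 of 11 combinations and in all 4 of the control regime, where it ran from 0.04 to 0.32. The 2 combinations below 0 were M1 water (-0.16) and E2 ethanol (-0.06), as labelled. The day 5 minus day 2 median was above 0 in all 11 combinations, from 0.02 to 0.26. Without the 8 arrays 12 were called for day 5 minus day 1, all higher (16.9%). Of all tested probe sets 10.1% were then called higher and 21.3% in either direction. For day 5 minus day 2 the count was 2, both higher (2.82%, against 2.63% and 4.84%). On the control arrays alone 5 and 0 were called (7.04% and 0%), against 16.7% and 0.925% of all tested probe sets in either direction. On water arrays alone 12 and 6 were called (16.9% and 8.45%, against 22.3% and 11.6%). On ethanol arrays alone 24 and 22 were called (33.8% and 31%, against 31.9% and 21.2%). With interchanged labels 39 and 28 were called (54.9% and 39.4%, against 47.8% and 36.1%). For the control, water, ethanol and interchanged fits the shares over all tested probe sets count both directions. They are thus not matched in direction to the 5 calls on control arrays, which were all higher. Leaving out 1 array gave 28 to 46 calls for day 5 minus day 1 and 22 to 38 for day 5 minus day 2.

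Markers of some cell types moved with the day. Between day 5 and day 1, 20.6% of all tested probe sets were called higher and 22.6% lower. All 10 tested neuron markers were lower on day 5 than on day 1, with a median of -0.60, among them elav (-0.66 ± 0.09) and the transporter gene VAChT (-0.67 ± 0.05). Their mean deviation ran from 0.02 to 0.44 on day 1 and from -0.43 to -0.10 on day 5, without overlap. Of 7 tested midgut markers 5 were higher, including Mal-A1 (1.42 ± 0.13) and the trypsin gene alphaTry (0.49 ± 0.05). Their mean deviation ran from -0.63 to -0.01 on day 1 and from 0.01 to 0.67 on day 5. Of 3 fat body markers all were lower, of 10 haemocyte markers 4 were higher and 3 lower, and of 9 muscle markers 1 was higher and 2 lower. The part of these markers in the rise of the mitochondrial ribosomal protein genes was not tested, and the day cannot be told apart from whatever else differed between the extraction blocks.

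The exposure also went with some of these markers, in a comparison where 15.2% of all tested probe sets were called higher and 16.0% lower. After ethanol 6 of 10 haemocyte markers were lower and none higher, among them NimC1 (-0.77 ± 0.11) and Hml (-0.47 ± 0.11), with mean deviations of -0.08 to 0.36 on water and -0.56 to 0.15 on ethanol arrays. Of 7 midgut markers 1 was higher and 2 lower, of 3 fat body markers 1 and 1, of 10 neuron markers 1 was lower (brp), and of 9 muscle markers none was called. Their part in the small differences of mitochondrial ribosomal protein genes was not tested.

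Other genes of mitochondrial translation gave mixed directions after ethanol, where 15.2% of all tested probe sets rose and 16.0% fell. Of 21 tested factors of mitochondrial gene expression 1 rose (4.76%), mRRF1, a ribosome recycling factor (0.31 ± 0.07, adjusted p 0.00143 in limma), and the median was -0.02. In the control regime 2 of the 21 factors fell, a share near the 10.1% of all tested probe sets called lower there. They were TFAM, which packages mitochondrial DNA (-0.24 ± 0.08), and the elongation factor gene mEFTs (-0.29 ± 0.09). Of 14 tested mitochondrial aminoacyl-tRNA synthetases, which charge transfer RNAs, 3 rose (PheRS-m 0.21 ± 0.04, AsnRS-m 0.26 ± 0.06, MetRS-m 0.21 ± 0.07) and 3 fell (IleRS-m -0.29 ± 0.09, LeuRS-m -0.13 ± 0.05, ValRS-m -0.24 ± 0.09).

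Of 58 tested genes of oxidative phosphorylation 4 rose (6.90%, below the 15.2% over all tested probe sets) by 0.07 to 0.11 and none fell, with ATPsynC (0.11 ± 0.02), the ring subunit of the ATP synthase, at the smallest p. The others were the complex I genes ND-B16.6, ND-MNLL and ND-42. Of 32 tested cytosolic ribosomal proteins, which belong to the other ribosome of the cell, 3 fell, or 9.38% (RpL34a -0.13 ± 0.04, RpL29 -0.07 ± 0.03, RpS20 -0.05 ± 0.02) and none rose.

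On day 5 against day 1, 7 of the 21 factors rose (33.3%, against 20.6% of all tested probe sets) and none fell. They included mtSSB, which binds single-stranded mitochondrial DNA (0.40 ± 0.06), the initiation factor gene mIF3 (0.36 ± 0.09), bonsai (0.30 ± 0.07), which encodes the mitochondrial S15 protein under its own name, and TFAM (0.24 ± 0.06). Of the synthetases 5 of 14 rose (35.7%) and none fell. Of the oxidative phosphorylation genes 14 of 58 rose (24.1%, near the share over all tested probe sets) and 2 fell. Of the cytosolic ribosomal proteins none rose and 5 of 32 fell (15.6%, under the 22.6% of all tested probe sets called lower), including RpL10Ab (-0.10 ± 0.02) and RpS5b (-0.40 ± 0.10). For levels between regimes, as labelled, none of these lists held a call. The median of ethanol minus control was 0.10 for the factors (17 of 21 above 0) and 0.14 for the synthetases (14 of 14). For variable minus control it was 0.11 (19 of 21) and 0.18 (13 of 14). These medians were above the 0.07 and 0.09 of the 71 probe sets. Oxidative phosphorylation genes stood at 0.004 and 0.01, and cytosolic ribosomal proteins at -0.0004 and -0.001.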

How the data were processed

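The authors deposited log2 values of Affymetrix probe sets. Per the submitters' processing notes they were made with GCRMA and affy, whose versions those notes do not name. The background model shapes low values, and these probe sets lie well above it. Groups came from titles and labels, and the number ending each title was read as the extraction day. No sequence or coordinate is printed, since the annotation of the array names no build.

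R 4.3.3 and limma 3.58.1 were used. Exposure, day and sister-population comparisons were fitted on all 34 arrays with 12 population-by-exposure means plus the day; a further fit added exposure by day. Selection and the response by regime used 6 population values. All tests were two-sided; eBayes used an intensity trend, and p-values were adjusted by Benjamini-Hochberg over the 9729 tested probe sets, with a threshold of 0.05. The sign ± gives limma's standard error. The labels describe extraction blocks of 1 sample per population and exposure, which pairs samples by day; deviations from group means correlated on average at 0.394, 0.184 and 0.423 within days 1, 2 and 5, and at -0.196 between days. No label says that the arrays of 1 population stem from separate cultures, and p-values then measure only the spread between these RNA samples. The fits were tested on simulated data.

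The genes and lists were chosen with earlier results of these data known. Named genes were every called probe set, or the 15 with the smallest p in a comparison with more calls, the 3 smallest p where none was called, the largest rise and fall per regime, and mRpL12, mRpL10, mRpL55 and mRpS16; from other lists, up to 6 called genes. Alternatives were quantile normalization, centring, filtering not at all or on a mean of 6, moderation without trend or robust, a single probe set per gene, no day block, arrays, days or populations left out, 1 exposure alone, arrays as replicates, and interchanged or omitted day 5 labels. Fits on 1 regime alone, and day comparisons on control, water or ethanol arrays alone, were added after seeing the data.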

Additional observations from a re-analysis of the deposited data

Results flagged for a closer look

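Of 90 groups of 4 to 10 arrays examined for 15 quantities, 2 held an array far from the others, and chance marks about 1 in 20 groups. mRpL42 read 11.01 on the M2 water array of day 1, against 11.26 on the nearest of the other 4 variable water arrays. mRpL10 read 9.37 on the R2 ethanol array of day 1, against 10.01 on the nearest of the other 5 control ethanol arrays. The second is also the array with the lowest median of all 71 probe sets, 10.34.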

How the results depend on the processing

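Of the counts and medians of the 20 comparisons, 291 values under other settings stayed within 1.5 times of the count or within the spread between replicates and 70 did not; for single genes, 834 kept direction and side of the threshold, 97 lost a call, 16 gained one and 10 changed sign. The cause was not tested. All 71 probe sets reached a value of 4 on every array.

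With the day 5 labels interchanged, calls were 6 for exposure over all populations, 2 in the ethanol regime, 3 for R1 minus R2, 2 for M1 minus M2, 6 for E1 minus E2, 2 for day 2 minus day 1, and 1, 3 and 6 for exposure on days 1, 2 and 5. Median differences were -0.025 in the variable and 0.076 in the ethanol regime. For the response they were 0.152 (ethanol minus control), 0.054 (variable minus control) and 0.102 (ethanol minus variable), and for level -0.027 (ethanol minus variable). Signs changed for mRpL45 in the variable regime (0.0074), mRpL16 in the ethanol regime (0.0098), mRpL20 between M1 and M2 (0.0015), and mRpL36 (0.122), mRpS21 (0.010) and mRpL11 (0.451) for the response of ethanol minus variable.

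Without the 8 day 5 variable and ethanol arrays, calls were 1 over all populations, 1 in the control and 0 in the ethanol regime, 2 for R1 minus R2, 2 for E1 minus E2, 2 for day 2 minus day 1, 12 for day 5 minus day 1, 2 for day 5 minus day 2, and 3 and 0 for exposure on days 2 and 5. Medians were -0.026 in the variable regime, 0.051 and 0.063 for the response of variable minus control and ethanol minus variable, and 0.127 and -0.025 for the level in the same comparisons. mRpL55 was at -0.029 over all populations and mRpL11 at 0.158 for ethanol minus variable.

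With no replicate block (no day term), calls were 1 over all populations, 0 in the control and 0 in the ethanol regime, and 0 for R1 minus R2; medians were 0.075 in the variable regime and -0.088 for the response of ethanol minus variable. Centring on array medians gave 1 call in the control regime, 2 for R1 minus R2, 1 for day 2 minus day 1 and 0 on day 5, with medians of 0.057 in the variable regime, 0.125 for the response of variable minus control and 0.047 for the level of ethanol minus control. Quantile normalization gave 1 in the control regime, 2 for R1 minus R2, 2 for E1 minus E2 and 2 on day 5, with medians of 0.088 and -0.087 (variable regime, response of ethanol minus variable), and mRpS16 at 6.1e-06. No filter gave 1 call in the control regime and 0 on day 5, no trend 1 in the control regime, and 1 probe set per gene a variable median of 0.062. Arrays of the regime alone gave 1 call (control), 0 (ethanol) and a variable median of 0.073; arrays of the day alone gave 3 on day 2 and 0 on day 5. Day 5 minus day 1 and day 5 minus day 2 gave 5 and 0 calls on control arrays, 12 and 6 on water arrays and 24 and 22 on ethanol arrays. Arrays as replicates gave 10 and 8 calls for the level of ethanol and variable minus control. Level medians (ethanol minus control, variable minus control, ethanol minus variable) were 0.032, 0.012 and 0.044 on water arrays and 0.134, 0.170 and -0.036 on ethanol arrays, where mRpS21 was at -0.043 for the last.

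Leaving out each array, day or population gave 0 to 6 calls over all populations (0 higher and 4 lower without replicate 5), 0 to 5 in the control, 0 to 7 in the variable and 0 to 1 in the ethanol regime, 0 to 2 for R1 minus R2, 0 to 2 for M1 minus M2, 0 to 3 for E1 minus E2, 0 to 3 for day 2 minus day 1, 20 to 46 for day 5 minus day 1, 0 to 2, 0 to 1 and 0 to 12 for exposure on days 1, 2 and 5, and 0 to 2 for exposure by day. Medians ran from -0.114 to -0.022 (control), -0.026 to 0.155 (variable) and -0.042 to 0.047 (ethanol regime). For the response they ran from -0.0049 to 0.149 (ethanol minus control), 0.058 to 0.231 (variable minus control) and -0.169 to 0.063 (ethanol minus variable), and for the level from 0.051 to 0.104, 0.040 to 0.135 and -0.034 to 0.055. The M1 water arrays of days 5 and 1 set the lowest and highest variable medians of 1-array fits, -0.013 and 0.155. Over all populations mRpL12 ran from -0.055 to 0.015, mRpL10 from -0.036 to 0.170, mRpL55 from -0.046 to 0.074 and mRpS16 from -0.046 to 0.011, and mRpL11 (ethanol minus variable) from -0.538 to 0.158.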

Other observations

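The probe sets that mRpS10 and mRpL53 share with a second gene were kept out of all counts above. The one annotated to CG34316 and mRpS10 had a mean level of 9.19 and fell after ethanol by 0.26 ± 0.05 over all populations (adjusted p 0.000740 in limma) and by 0.39 ± 0.09 in the control regime (adjusted p 0.00320). It rose by 0.36 ± 0.07 between day 1 and day 5 (adjusted p 9.47e-05). The array cannot say which of the 2 genes these values belong to. The probe set annotated to CG33155 and mRpL53 differed by -0.01 ± 0.05 after ethanol and by 0.11 ± 0.06 between days 1 and 5, and was not called in either comparison.

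In the gene table of the current annotation, none of the 69 genes lies next to another of them, and 41 overlap another protein-coding gene. The array annotation does not say which probes fall in such overlaps.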
